A study of Bos taurus with 2 samples.

Results

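KLF5 cells were the cells of day 25 bovine embryos that held 2 or more UMIs of the transcription factor gene KLF5. A UMI is a short tag that marks 1 captured RNA molecule, so that copies made by PCR are not counted again. A cell also needed 500 or more detected genes and fewer than 2 UMIs in the sum of the collagen VI genes COL6A1, COL6A2 and COL6A3. By this rule 341 of the 4437 deposited cells were KLF5 cells, 174 of 1973 in replicate 1 and 167 of 2464 in replicate 2. The name describes 1 transcript and not a cell type, and the cells were chosen on measured values. The samples were bovine (Bos taurus) embryos flushed at day 25 that had taken up bovine embryonic stem cells, so they held cells of the host embryo beside cells grown from the stem cells. The tissue was dissociated with papain and DNase, sorted and profiled with droplet 3′ single-cell RNA sequencing. Both samples belong to 1 group, with no untreated or unmanipulated embryo beside them, and nothing in the labels says that they came from separate embryos. Every comparison was therefore made between cells of the same suspension.

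KLF5 is a zinc-finger transcription factor of the Krüppel-like family, whose members bind GC-rich and CACCC-type DNA. In mouse it is known from the outer and inner cells of the blastocyst, from embryonic stem cells, where it acts beside KLF2 and KLF4, and from the dividing basal cells of gut, skin and airway epithelium. It also belongs to the genes that many cell types switch on after serum, phorbol ester or injury.

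The libraries held 11182089 UMIs in replicate 1 and 15427708 in replicate 2, and 4359 cells had 500 or more genes. Of these, KLF5 cells made up 8.97% in replicate 1 (exact 95% interval 7.74 to 10.3) and 6.90% in replicate 2 (5.92 to 7.98). Intervals cover counting error only. Each KLF5 cell held at most 11 KLF5 UMIs in replicate 1 and 13 in replicate 2. Just inside the threshold, 81 and 88 cells had exactly 2 KLF5 UMIs. Just outside it, 193 and 239 cells with the same collagen VI limit had 1, and 1519 and 1917 had none. KLF5 cells held 70.7% of all KLF5 UMIs of the kept cells in replicate 1 and 62.1% in replicate 2. A barcode occurred in both libraries 6 times, and 1 of these cells was a KLF5 cell.

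The comparison side, called KLF5-negative cells, had 500 or more genes, no KLF5 UMI, the same collagen VI limit and a total UMI count within the range of the KLF5 cells of their replicate, which left 1447 and 1845 cells. KLF5 cells had a median of 4446 and 4348 UMIs per cell in replicates 1 and 2, below the 5137 and 5685 of the KLF5-negative cells. Their median number of detected genes was close on both sides, at 2694 and 2647 against 2635 and 2790. The sides differed in the share of UMIs that came from 77 ribosomal protein genes, whose median was 2.52% and 2.29% in KLF5 cells and 4.75% and 6.24% in KLF5-negative cells. A share under 10% was found in 93.1% and 88.0% of KLF5 cells and in 64.8% and 57.6% of KLF5-negative cells. Mitochondrial shares were low on both sides, with medians of 0.396% and 0.385% against 0.361% and 0.326%.

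**Figure D1:**
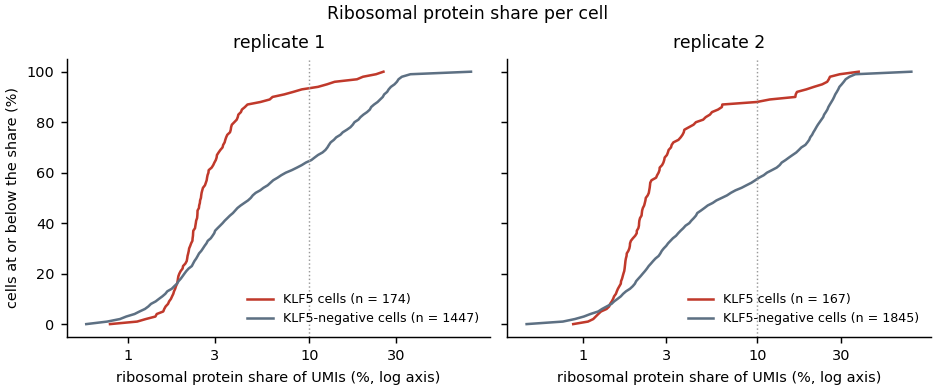
Cumulative share of cells (y axis, %) at or below a given ribosomal protein share of UMIs (x axis, %, log scale), for KLF5 cells and KLF5-negative cells of each replicate; the dotted line marks 10%. Most KLF5 cells lie at low shares, and 93.1% of them in replicate 1 and 88.0% in replicate 2 are under 10%.

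To see which cells carried KLF5, its frequency was counted among cells marked by other genes. Cells with 2 or more UMIs of SOX2, a factor of neural progenitors and pluripotent cells, were KLF5-positive at the same threshold in 10.8% of 622 cells (exact 95% interval 8.45 to 13.5) and 7.91% of 885 cells (6.22 to 9.89). Neuron-marked cells, with 2 or more UMIs of the microtubule regulator STMN2 and 1 or more of the microtubule-binding DCX, were positive in 1.80% of 278 cells (0.587 to 4.15) and 2.78% of 324 cells (1.28 to 5.21). The intervals of these classes did not overlap in either replicate, although the neuron-marked cells were the deeper ones, with medians of 7602 and 8166 UMIs against 7252 and 7991. Cells with 10 or more embryonic globin UMIs were positive in 6.61% of 121 and 3.16% of 158 cells. Cells with 2 or more collagen VI UMIs, which the rule leaves out, were positive in 13.2% of 53 and 20.6% of 97 cells. They were deeper still, with medians of 8848 and 10418 UMIs. The SOX2 shares lay near the 8.97% and 6.90% that KLF5 cells made up of all cells with 500 or more genes. Free RNA gives cells UMIs of genes they do not express, and its part in these shares was not tested.

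Among KLF5 cells themselves, 38.5% and 41.3% had 2 or more SOX2 UMIs, against 32.1% and 37.3% of KLF5-negative cells. The neuron-marked share was 2.87% and 5.39% of KLF5 cells against 17.5% and 15.1% of KLF5-negative cells. GATA3, a factor of trophoblast and several ectodermal tissues, had 2 or more UMIs in 33.3% and 43.1% of KLF5 cells against 40.8% and 40.9%. KLF5 cells thus included cells with and without SOX2 and GATA3 UMIs.

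3 other genes came with KLF5 in the definition of these cells, so their values are a description. RNF19B encodes a RING-between-RING ubiquitin ligase. It measured 337 and 309.7 CPM (summed UMIs scaled to a fixed library total) in KLF5 cells and 50.7 and 49.95 CPM in KLF5-negative cells. TEX14, in mouse a component of the stable bridges between dividing germ cells, measured 409 and 313 CPM against 47.6 and 42.7 CPM. FAM43A measured 258 and 191 CPM against 27.3 and 23.4 CPM. All 3 were higher in KLF5 cells of both replicates, and the sides did not overlap.

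The 3 genes were shared widely among KLF5 cells and were also often found together. At least 1 UMI of each of the 3 was present in 30.5% and 32.3% of KLF5 cells and in 2.21% and 2.22% of KLF5-negative cells. None of the 3 was detected in 16.1% and 19.8% of KLF5 cells and in 65.4% and 66.0% of KLF5-negative cells. With every cell thinned to 2000 UMIs, RNF19B was detected in 45.9% and 44.8% of KLF5 cells and in 10.8% and 8.67% of KLF5-negative cells, compared with 60.3% and 63.5% against 17.8% and 17.0% before thinning. Thinning left out 17 and 13 shallower KLF5 cells and 198 and 253 KLF5-negative cells.

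Levels of the 3 genes rose with the KLF5 UMIs of the cell. A cell with 1 UMI may have held more KLF5 RNA than was captured, so these sums cannot tell graded from stepped levels. RNF19B measured 50.7 CPM at 0 KLF5 UMIs, 172 at 1, 305 at 2 and 365 at 3 or more in replicate 1, and 49.95, 131, 224 and 412 CPM in replicate 2. TEX14 went from 47.6 through 202 and 356 to 454 CPM in replicate 1 and from 42.7 through 119 and 216 to 429.9 CPM in replicate 2. The cells with 1 KLF5 UMI, which the rule leaves out, lay between both sides for RNF19B, TEX14 and FAM43A in both replicates. Median depth did not follow the same order, at 5137, 4807, 4073 and 4722 UMIs in replicate 1, while the median ribosomal protein share fell from 4.75% through 2.78% and 2.65% to 2.46%.

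**Figure D2:**
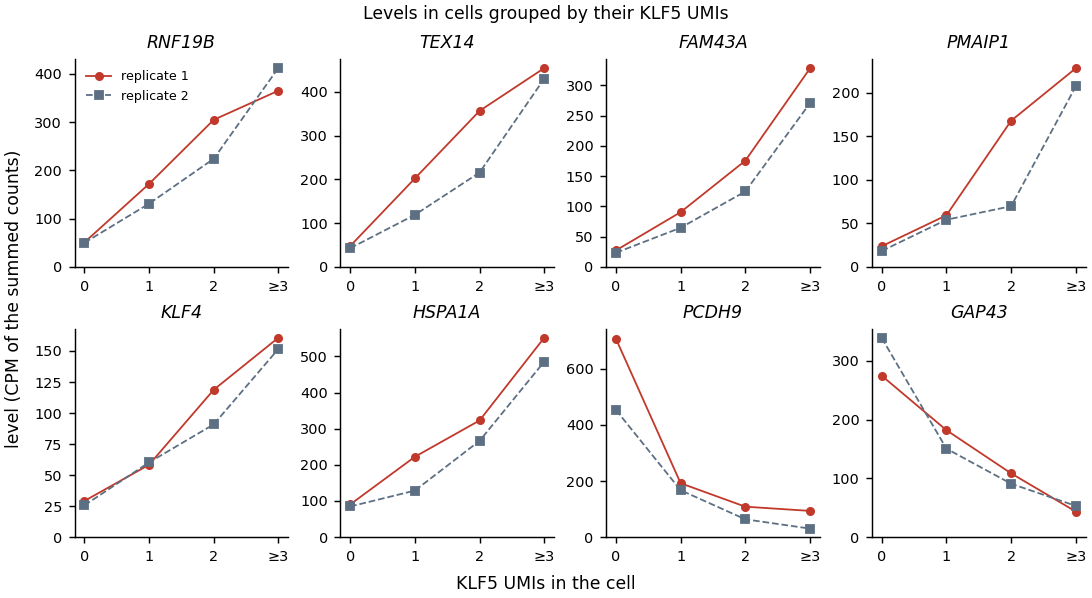
Level (y axis, CPM of the counts summed over cells) of 8 genes in cells grouped by their KLF5 UMIs (x axis), with 1 line for each replicate. RNF19B, TEX14, FAM43A, PMAIP1, KLF4 and HSPA1A climb with KLF5, while PCDH9 and GAP43 decline, in both replicates.

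Across the transcriptome, counts were summed for each side and replicate and fitted with edgeR's quasi-likelihood test with Benjamini-Hochberg adjustment at 0.05 and replicate as a block. Of 13304 genes tested beside those of the rule, 3003 were higher in KLF5 cells (22.6%) and 3235 were lower (24.3%). With 4 sums, each gene had 1 residual degree of freedom and its spread was taken wholly from the level pooled over genes. DESeq2 called 1230 genes higher and 1497 lower, and all 2727 were among the edgeR calls with the same sign. Normalization by the trimmed mean of M values (TMM) set each log2 fold change 0.25 below the ratio of CPM values, and without it 4311 genes were called higher and 2102 lower, 67.2% higher in place of 48.1%. Since ribosomal protein share differed between the sides, the comparison was repeated with 5 KLF5-negative cells per KLF5 cell matched on total UMIs and that share, called matched comparison cells, 870 and 835 cells with median shares of 2.68% and 2.50%. In this fit 1647 of 12311 genes were higher (13.4%) and 1932 lower (15.7%). Counts for gene lists are given from both fits, and a list whose shares lie near these shares over all genes does not stand apart from them. RNF19B, TEX14 and FAM43A are left out of the lists that hold them.

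The genes with the highest log2 fold change, at 50 or more CPM in KLF5 cells of both replicates, came from many functions. ATF7IP2, a relative of the cofactor of a histone methyltransferase, measured 109.7 and 81.7 CPM in KLF5 cells against 7.88 and 8.58 CPM, a log2 fold change of 3.27, SE 0.24, adjusted p 3.9e-41. NPTX2, a secreted pentraxin known from synapses, measured 67.2 and 71.4 against 7.16 and 7.77 CPM, with a log2 fold change of 2.96, SE 0.27, adjusted p 1.77e-26. CRISPLD2, a secreted cysteine-rich protein, measured 96.7 and 76 against 10.2 and 9.38 CPM, with a log2 fold change of 2.88, SE 0.24, adjusted p 2.83e-32. For these 3 genes both KLF5 values lay far above both KLF5-negative values. ATF7IP2 was nevertheless detected in only 44 of 174 and 33 of 167 KLF5 cells, NPTX2 in 34 and 38 and CRISPLD2 in 51 and 39.

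A second group holds enzymes and their relatives. HPSE2, a heparanase relative, measured 81.4 and 78.3 against 11.5 and 7.42 CPM (log2 fold change 2.85, SE 0.25, adjusted p 4.57e-29). The brain serine protease gene PRSS12 measured 111 and 87.5 against 16.7 and 12.8 CPM (2.50, SE 0.20, adjusted p 1.61e-34). Both were higher in KLF5 cells of both replicates, as was ACOT2, a mitochondrial acyl-CoA thioesterase, at 73.1 and 57.6 against 10.7 and 8.94 CPM (2.48, SE 0.26, adjusted p 2.8e-20).

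Genes of chromatin, the spindle and the sperm tail were also in this group. L3MBTL1, a chromatin-compacting reader of histone methylation, measured 198 and 191 against 32.8 and 27.3 CPM (log2 fold change 2.45, SE 0.15, adjusted p 2.24e-54). FAM83D, a spindle protein, measured 176 and 155 against 26.4 and 23.1 CPM (2.49, SE 0.17, adjusted p 1.26e-48). CABYR, a calcium-binding protein first known from the sperm tail, measured 73.1 and 64.5 against 9.58 and 7.06 CPM (2.81, SE 0.26, adjusted p 9.5e-25). The histone gene H2BC20 measured 72 and 73.7 against 12.9 and 8.94 CPM (2.51, SE 0.25, adjusted p 7.37e-23). Levels were close between replicates on each side and the sides did not overlap.

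**Figure D3:**
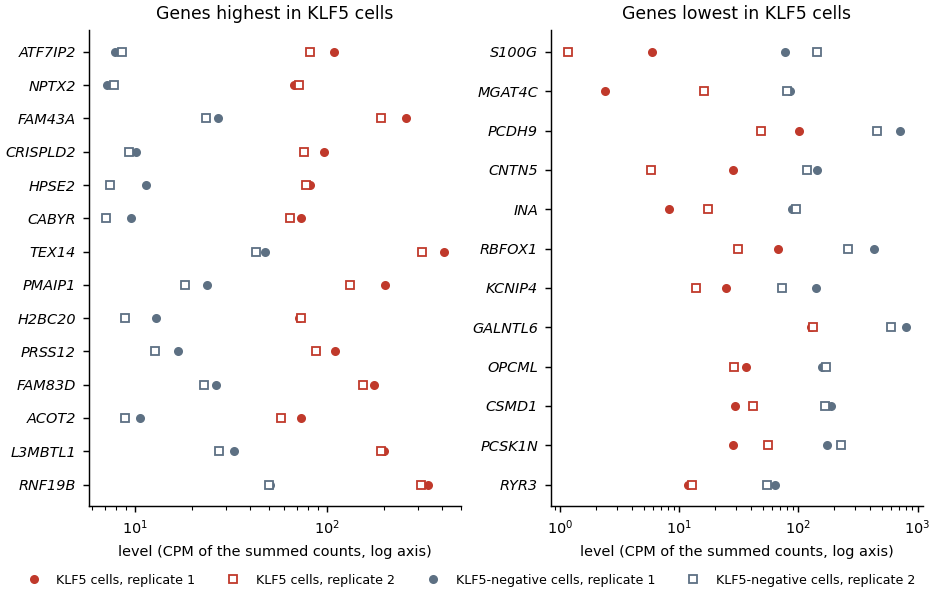
Level (x axis, CPM of the summed counts, log scale) of 14 of the 16 genes with the highest and of the 12 with the lowest log2 fold change in KLF5 cells, with 1 point for each side and replicate. No KLF5 value overlaps a KLF5-negative value of the same gene.

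The 12 genes with the lowest log2 fold change included INA, which is in the neuron list. PCDH9, a protocadherin of neural cell adhesion, measured 100.3 and 48.4 CPM in KLF5 cells against 707 and 453 CPM, a log2 fold change of -3.23, SE 0.14, adjusted p 5.6e-114 by edgeR. Its UMIs were detected in 17.8% and 8.98% of KLF5 cells and in 18.9% and 18.3% of KLF5-negative cells. In replicate 1 the sides therefore differed mainly in the UMIs per detecting cell. RBFOX1, a splicing regulator of neurons, measured 67.2 and 31.1 against 434 and 261 CPM (-3.08, SE 0.15, adjusted p 4.49e-93); with 1 or more KLF5 UMIs as the threshold, this call was lost (-2.15, SE 0.42, adjusted p 0.129 by edgeR), as was that of CSMD1 (-1.85, adjusted p 0.155). INA, a neuronal intermediate filament, measured 8.26 and 17.3 against 88.9 and 96.1 CPM (-3.10, SE 0.25, adjusted p 2.25e-34). The contactin gene CNTN5, the adhesion gene OPCML, the potassium channel partner KCNIP4, the secretory peptide precursor PCSK1N and the calcium release channel RYR3 were also among the 12 lowest, with log2 fold changes between -3.21 and -2.51. All were lower in KLF5 cells of both replicates.

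The lowest of all at this level was S100G, which encodes the calcium-binding protein calbindin-D9k. It measured 5.9 and 1.15 CPM in KLF5 cells against 77.5 and 142 CPM (log2 fold change -5.21, SE 0.31, adjusted p 4.75e-58). Few cells carried it on either side, 5 of 174 and 1 of 167 KLF5 cells and 44 of 1447 and 38 of 1845 KLF5-negative cells. MGAT4C, CSMD1 and GALNTL6 completed the group, and GALNTL6 measured 127 and 134 against 804 and 598 CPM (-2.66, SE 0.13, adjusted p 2.68e-90 by edgeR). Detection of GALNTL6 differed less, at 25.9% and 26.3% of KLF5 cells against 33.0% and 33.4% of KLF5-negative cells.

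Among the 18 tested genes of the KLF and SP family other than KLF5, 7 were higher and 4 lower, with a median log2 fold change of 0.28 against -0.03 over all genes, and 6 of 17 higher and 3 lower with matched comparison cells. KLF4, a pluripotency and epithelial factor, measured 142 and 119 against 29.1 and 25.6 CPM (log2 fold change 2.00, SE 0.17, adjusted p 4.81e-30). KLF9 measured 22.4 and 20.7 against 6.55 and 4.29 CPM (1.76, SE 0.39, adjusted p 2.98e-05), and KLF10, a gene known for its induction by TGF-beta, 92 and 95.6 against 40.0 and 42.3 CPM (0.94, SE 0.17, adjusted p 5.32e-07). KLF6, SP1, SP3 and SP4 were higher by 0.47, 0.40, 0.54 and 0.95 on the log2 scale. KLF12, a repressor, measured 79 and 81.7 against 176 and 146 CPM (-1.24, SE 0.14, adjusted p 2.93e-17), and KLF7, KLF8 and KLF13 were lower with log2 fold changes of -0.86, -1.02 and -0.80. KLF2, KLF3 and KLF11 did not pass the test. The SP1 and SP3 calls were lost with comparison cells matched on UMIs and ribosomal protein share (log2 fold changes 0.12 and 0.18, adjusted p 0.624 and 0.235 by edgeR), as was the KLF13 call (-0.54, adjusted p 0.0952). The KLF6, KLF13 and SP1 calls were also lost with DESeq2 (adjusted p 0.0659, 0.128 and 0.329), and all 3 were lost with 3 or more KLF5 UMIs required (log2 fold changes 0.06, -0.78 and 0.22, adjusted p 0.806, 0.0747 and 0.457 by edgeR).

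Of 13 tested genes from a list of reported KLF5 targets, 4 were higher and 2 lower, with a median of 0.23, against 22.6% and 24.3% over all genes. The counts were 6 of 12 higher and 1 lower with matched comparison cells. The higher ones were the mitotic kinase CDK1, the cell cycle inhibitor CDKN1A, MYC and TXNIP. The lower ones were the cyclin CCND1, at 68.4 and 71.4 against 148 and 149 CPM (-1.33, SE 0.15, adjusted p 4.4e-18), and the inhibitor CDKN1B, at 44.8 and 33.4 against 44 and 50.3 CPM, where the sides overlapped and whose call was lost with matched comparison cells (-0.14). With library totals in place of TMM the counts were 8 higher and 1 lower.

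The early response and dissociation stress list showed the highest share of called genes of the pathway lists. It holds genes that rise within minutes to hours of a stimulus, among them AP-1 and EGR factors and heat shock proteins. Of its 28 tested genes 23 were higher and none was lower, with a median log2 fold change of 1.04, and the counts were the same with matched comparison cells, at a median of 0.96. ATF3, a stress-induced factor, measured 606 and 510.0 CPM in KLF5 cells against 137 and 121 CPM (1.86, SE 0.10, adjusted p 4.33e-68). The heat shock protein gene HSPA1A measured 447 and 366 against 90.2 and 84.7 CPM (1.96, SE 0.11, adjusted p 3.91e-70), and the growth arrest gene GADD45A 229 and 206 against 54.2 and 47.9 CPM (1.84, SE 0.13, adjusted p 1.77e-41). JUN measured 1333 and 1382 against 692 and 767 CPM (0.65, SE 0.11, adjusted p 5.29e-08). JUND, EGR3, DUSP1, BTG2 and KLF2 did not pass the test; JUND and DUSP1 were called higher with matched comparison cells (0.55 and 0.45).

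The difference lay across the KLF5 cells rather than in a few of them. The summed share of the list in a cell's UMIs had a median of 0.533% and 0.517% in KLF5 cells and 0.185% and 0.209% in KLF5-negative cells. The 10th percentile of KLF5 cells lay at 0.197% and 0.235%, close to the median of the other side. Genes of this list are known to be inducible by dissociation itself, and their part in the other differences was not tested.

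Genes of apoptosis and the p53 response were higher in 10 of 16 tested and lower in 3, with a median of 0.88, and 9 of 16 higher and 1 lower with matched comparison cells. PMAIP1, the pro-apoptotic protein also called NOXA, measured 201 and 132 against 23.8 and 18.3 CPM (2.72, SE 0.17, adjusted p 2.6e-55). SESN2, a stress-induced regulator of growth signalling, measured 270.2 and 248 against 78.4 and 61.3 CPM (1.65, SE 0.12, adjusted p 1.74e-40), and CDKN1A 51.9 and 56.4 against 16.1 and 16.4 CPM (1.48, SE 0.24, adjusted p 6.23e-09). BCL2L11, SESN1, TP53INP1, ZMAT3 and MCL1 were also among the higher ones. The p53 inhibitor MDM2, BAX and PHLDA3 were lower, BAX at 7.08 and 9.21 against 21.5 and 23.1 CPM (-1.70, SE 0.36, adjusted p 1.6e-05). The BAX, PHLDA3 and ZMAT3 calls were lost with matched comparison cells, at log2 fold changes of -0.76, 0.06 and 0.29.

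Genes of the NF-kB and inflammatory list were higher in 6 of 10 tested and lower in none, and 4 of 10 higher and 1 lower with matched comparison cells, the lower one being NFKB1 (-0.67). IL1A, which encodes the cytokine interleukin-1 alpha, measured 61.4 and 44.9 against 11 and 9.11 CPM (2.14, SE 0.27, adjusted p 7.97e-14), and the adhesion molecule ICAM1 16.5 and 35.7 against 2.91 and 2.86 CPM (2.90, SE 0.42, adjusted p 7.57e-11). The inhibitors NFKBIA and NFKBIZ, RELB and BIRC3 made up the rest, and NFKBIZ was not called by DESeq2 (adjusted p 0.0726). RELB and BIRC3 were not called with matched comparison cells (0.49 and 0.52). In the interferon list 2 of 7 were higher and 1 was lower, and 1 of 4 higher and 1 lower with matched comparison cells. The factor IRF1 was higher, at 11.8 and 10.4 against 2.91 and 2.86 CPM (1.68, SE 0.52, adjusted p 0.00353; 1.31 and adjusted p 0.0507 with matched comparison cells by edgeR), and the interferon-induced ISG15 was lower, at 2.36 and 1.15 against 9.58 and 17.3 CPM (-3.17, SE 0.60, adjusted p 8.7e-07).

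Cell cycle genes had 15 of 35 higher and 6 lower and a median of 0.31, and 14 of 35 higher and 2 lower with matched comparison cells. CDC6, which licenses replication origins, measured 136 and 128 against 30.2 and 29 CPM (1.90, SE 0.17, adjusted p 1.07e-27). CDK1 measured 134 and 127 against 31.5 and 28 CPM (1.89, SE 0.17, adjusted p 3.48e-27), and RRM2, a subunit of ribonucleotide reductase, 212 and 237 against 65.4 and 62.2 CPM (1.57, SE 0.13, adjusted p 2.71e-33). The replication helicase subunit MCM6 was higher (1.28) while its partners MCM2 and MCM5 were lower (-0.97 and -1.35), and the G1 cyclins CCND1 and CCND2 were lower (-1.33 and -1.17). Known proliferation markers did not all follow: MKI67 was higher by 0.63, whereas TOP2A (0.16), CENPF (-0.13) and PLK1 (-0.15) did not pass the test. With matched comparison cells MCM2 and CCND2 were not called (-0.38 and -0.33), and TOP2A was called higher (0.29).

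Genes of the intercellular bridge and midbody, the structure between daughter cells at the end of division, were higher in 7 of 10 tested other than TEX14 and lower in none. RACGAP1, a subunit of the central spindle complex, measured 103 and 113 against 38.9 and 36.9 CPM (1.26, SE 0.17, adjusted p 2.91e-12). Its partner KIF23 measured 319 and 279 against 119 and 101 CPM (1.19, SE 0.11, adjusted p 2.25e-25), and ANLN, PRC1, CEP55, ECT2 and CIT were higher by 1.11, 1.18, 0.92, 0.73 and 0.64. With matched comparison cells 4 stayed called, and CEP55, ECT2 and CIT were not. No UMI of RBM44, another bridge component, was found in KLF5 cells, which says little if KLF5-negative cells also held few. Among 13 RING-between-RING ligases other than RNF19B, 2 were higher and 3 lower, near the share over all genes, and 0 of 13 higher and 4 lower with matched comparison cells. The paralog RNF19A measured 182 and 168 against 101 and 91.3 CPM (0.62, SE 0.13, adjusted p 6.68e-06), and its call was lost with matched comparison cells (0.29).

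**Figure D4:**
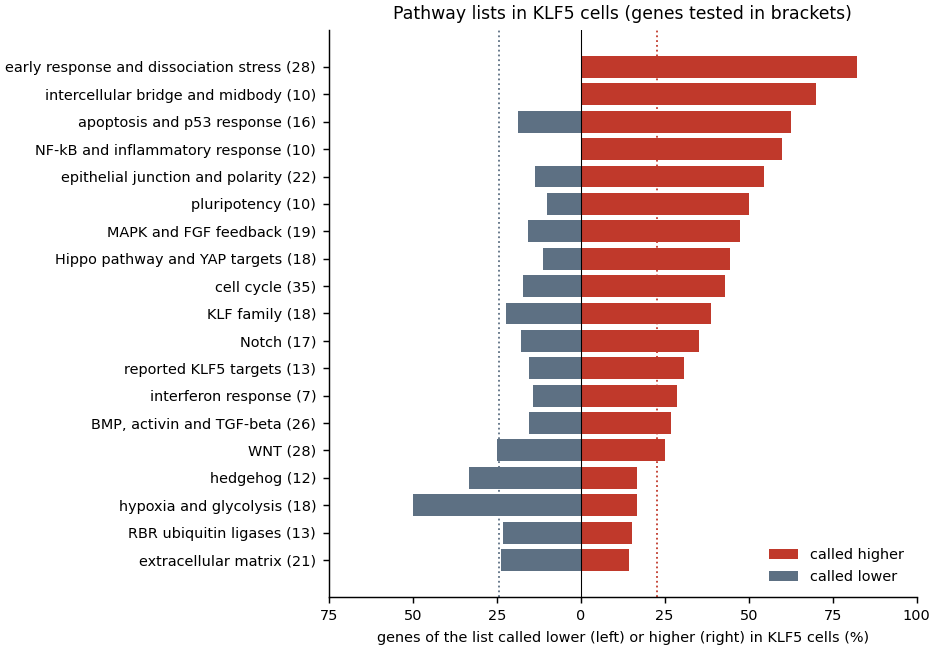
Share of tested genes (x axis, %) of each pathway list called higher (right) or lower (left) in KLF5 cells by edgeR; dotted lines mark the shares over all genes, 22.6% higher and 24.3% lower. The early response and dissociation stress list has the highest share of higher genes and the hypoxia and glycolysis list the highest share of lower genes.

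Signalling lists were mixed. In the MAPK and FGF feedback list 9 of 19 genes were higher and 3 lower, and the ERK phosphatase gene DUSP5 measured 138 and 94.4 against 19.8 and 17.7 CPM (2.37, SE 0.18, adjusted p 8.82e-38). DUSP4, DUSP6, SPRY1, SPRY4, SPRED1, ETV5 and the ligands AREG and HBEGF were the others, while the receptors FGFR2 and FGFR3 and the inhibitor SPRED2 were lower. Against matched comparison cells the list had 4 higher and 4 lower, and SPRY1, SPRY4, SPRED1, ETV5 and AREG were not called. In the Hippo list 8 of 18 were higher and 2 lower, 4 of 18 higher and 2 lower with matched comparison cells, and the secreted YAP target CCN1 measured 415 and 347 against 181 and 156 CPM (0.92, SE 0.10, adjusted p 3.2e-17).

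Notch genes were higher in 6 of 17 and lower in 3, and 5 of 16 higher and 2 lower with matched comparison cells. The feedback regulator NRARP measured 56.6 and 50.7 against 15.9 and 13 CPM (1.65, SE 0.25, adjusted p 5.35e-10), the ligand JAG1 209 and 166 against 87 and 81.2 CPM (0.90, SE 0.13, adjusted p 2.02e-11) and the target HES1 288 and 201 against 98 and 106 CPM (1.00, SE 0.12, adjusted p 1.84e-16). HES5, a target known from neural progenitors, was lower at 33 and 58.7 against 94.4 and 107 CPM (-1.39, SE 0.18, adjusted p 5.56e-14). Thus targets of the same pathway lay on both sides.

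In the BMP, activin and TGF-beta list 7 of 26 genes were higher and 4 lower, and 3 of 23 higher and 8 lower with matched comparison cells. The ligand TGFB2 measured 225 and 224 against 92.1 and 89.4 CPM (1.06, SE 0.12, adjusted p 2.37e-17). Of the ID targets, ID2 was higher (0.99) and ID1 and ID3 were lower (-1.04 and -1.08). WNT genes had 7 of 28 higher and 7 lower, near the 22.6% and 24.3% over all genes, and 1 of 26 higher and 5 lower with matched comparison cells. Hedgehog genes had 2 of 12 higher and 4 lower, and 0 of 11 higher and 3 lower with matched comparison cells. Among the lower ones was the ligand SHH at 22.4 and 16.1 against 51.1 and 62.6 CPM (-1.81, SE 0.24, adjusted p 9.19e-13), whose call was lost with matched comparison cells (-0.69, adjusted p 0.1 by edgeR). Extracellular matrix genes had 3 of 21 higher and 5 lower, and 2 of 21 higher and 3 lower with matched comparison cells; fibronectin, FN1, measured 131 and 168 against 63.7 and 53.8 CPM (1.11, SE 0.15, adjusted p 5.17e-13).

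The balance of several of these lists moved with the scaling. With library totals in place of TMM, hedgehog genes had 5 higher and 2 lower, WNT genes 8 and 2, RING-between-RING ligases 5 and 2, the MAPK and FGF feedback list 12 and 1, the Notch list 10 and 2 and extracellular matrix genes 6 and 4. The early response list had 26 higher and none lower, and the apoptosis and p53 list 11 and 2.

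In the hypoxia and glycolysis list 9 of 18 genes were lower and 3 higher. The glycolytic enzyme ENO1 measured 421 and 622 against 1321 and 1586 CPM (-1.74, SE 0.12, adjusted p 6.77e-45), PGK1 44.8 and 79.4 against 186 and 208 CPM (-1.92, SE 0.14, adjusted p 7.38e-38), and GAPDH 435 and 580.2 against 1105 and 1218 CPM (-1.45, SE 0.12, adjusted p 3.79e-33). The angiogenic factor VEGFA went the other way, at 166 and 144 against 40.0 and 40.0 CPM (1.70, SE 0.16, adjusted p 6.35e-26), with HK2 and EGLN3. With matched comparison cells 5 of 17 stayed lower, ENO1 at -0.45 and PGK1 at -0.82, while GAPDH was at -0.19 and was not called.

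Ribosomal protein genes moved most uniformly: 76 of 77 were lower and none higher, with a median of -1.53. Their median was -0.14 once comparison cells were matched on the share itself.

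Markers of other cell types were compared on the same sums, where 22.6% of all genes were higher and 24.3% lower, or 13.4% and 15.7% with matched comparison cells. Neuron genes were lower in 8 of 11 tested and higher in 2, with a summed level of 679.6 and 702 CPM in KLF5 cells against 1598 and 1782 CPM. STMN2 measured 146 and 184 against 602 and 699 CPM (-2.23, SE 0.12, adjusted p 2.82e-69), and GAP43, a growth cone protein, 73.1 and 73.7 against 275 and 339 CPM (-2.31, SE 0.14, adjusted p 3.87e-62). With matched comparison cells the counts were 1 of 10 higher and 6 lower, with STMN2 at -1.31 and GAP43 at -1.51. NHLH1 had no UMI in KLF5 cells, and NEUROD4 and POU4F1 were the 2 higher, of which POU4F1 was not called with matched comparison cells. The part of neuron-marked cells in the other differences was not tested.

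Neural progenitor genes were higher in 3 of 11 and lower in 3, near the share over all genes, and 3 of 10 higher and 2 lower with matched comparison cells, with a summed level of 1498 and 1475 CPM against 1345 and 1379 CPM. SOX2 measured 301 and 318 against 254 and 273 CPM and did not pass the test (-0.02, SE 0.11, adjusted p 0.908); with matched comparison cells it was called higher (0.28, adjusted p 0.0413 by edgeR), as was SOX1 (0.58, adjusted p 0.0247). ZIC1 was higher, at 75.5 and 80.6 against 29.5 and 25.2 CPM (1.27, SE 0.19, adjusted p 9.01e-11), as were PAX6 and OTX2, and FABP7 was lower, at 15.3 and 21.9 against 77.4 and 89.6 CPM (-2.41, SE 0.23, adjusted p 3.97e-24). The PAX6 and OTX2 calls were lost with matched comparison cells (0.14 and 0.71), and FABP7 stood at -1.08. In the neural crest list, with summed levels of 218 and 213 CPM against 275 and 263 CPM, 4 of 7 were lower and SNAI2 was higher (1.53, SE 0.34, adjusted p 3.05e-05); the counts were 1 of 6 higher and 2 lower with matched comparison cells.

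HAND2, a factor known from autonomic neurons and the heart, had 1 UMI in all KLF5 cells together. It had 857 UMIs in KLF5-negative cells, a level 75.7-fold that of KLF5 cells (exact 95% counting interval 13.5 to 2993). They lay in 77 of 1447 and 108 of 1845 of these cells. The interval takes UMIs as independent and is therefore too narrow.

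Pluripotency genes were higher in 5 of 10 and lower in 1, and 4 of 10 higher and 1 lower with matched comparison cells. POU5F1, NANOG, PRDM14 and UTF1 had no UMI in KLF5 cells, which says little for genes that are also rare in KLF5-negative cells. Among the higher ones were KLF4, TFCP2L1, SALL4 and OTX2, of which SALL4 and OTX2 were not called with matched comparison cells. LIN28B was lower, at 249 and 216 against 283 and 248 CPM (-0.44, SE 0.11, adjusted p 0.000292), and was not called with library totals in place of TMM.

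Epithelial junction and polarity genes were higher in 12 of 22 and lower in 3, and 12 of 20 higher and 2 lower with matched comparison cells. Among cells with a ribosomal protein share under 10% they were higher in 4 of 16 and lower in 2, against 17% and 17.4% of all genes in that fit. On all cells the list had summed levels of 1534 and 1477 CPM against 1065 and 1039.6 CPM. The adhesion molecule EPCAM measured 46 and 25.3 against 4.73 and 5.99 CPM (2.44, SE 0.34, adjusted p 5.31e-12), but only 4 of 174 and 7 of 167 KLF5 cells held an EPCAM UMI, and 72.1% of these UMIs lay in cells whose ribosomal protein share reached 10%. The keratins KRT8 and KRT18 did not pass the test and were found in 36 and 42 of 341 KLF5 cells, which held 160 and 185 UMIs. Both were called higher with matched comparison cells (0.86 and 1.14), and KRT19 went from lower (-0.50, adjusted p 0.00168 by edgeR) to higher (0.89, adjusted p 0.000471). The junction scaffold TJP1 was higher at 536 and 542 against 373 and 327 CPM (0.38, SE 0.11, adjusted p 0.00117), but was not called with matched comparison cells (0.0028, adjusted p 0.986 by edgeR). Also higher was the polarity gene PARD6B at 49.6 and 72.5 against 21.7 and 20.7 CPM (1.27, SE 0.21, adjusted p 2.4e-08). Cells with an EPCAM UMI were KLF5-positive at the rule's threshold in 4 of 26 and 7 of 33 cells.

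In the surface ectoderm list 6 of 9 tested genes were higher and 2 lower, and 5 of 9 higher and 0 lower with matched comparison cells, with summed levels of 241 and 203 CPM against 107 and 109 CPM. The p63-dependent junction gene PERP measured 64.9 and 46.1 against 12.1 and 17.1 CPM (1.68, SE 0.25, adjusted p 1.48e-10), and DLX3 38.9 and 17.3 against 1.82 and 2.23 CPM (3.45, SE 0.44, adjusted p 1.09e-13). Of the higher genes, EPCAM, GRHL2 and CDH1 were found in only 11, 9 and 8 of 341 KLF5 cells, against 69 for PERP and 35 for DLX3. Among cells with a ribosomal protein share under 10%, the list had 4 of 8 higher and 1 lower. In that fit GRHL2 was not tested and CDH1 was not called (adjusted p 0.076 by edgeR). KRT5 had no UMI on either side. KRT15 had none in KLF5 cells against 0.243 and 0.268 CPM, and TP63 measured 2.36 and 0 against 0.485 and 2.14 CPM. The amnion ectoderm list had 2 of 8 higher and 1 lower, and 1 of 8 higher and 0 lower with matched comparison cells, with BAMBI at 104 and 66.8 against 30.4 and 34.6 CPM (1.13, SE 0.18, adjusted p 3.84e-09).

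Trophoblast genes were higher in 1 of 15, PTGS2, and lower in 5, with summed levels of 1153 and 524 CPM against 730.5 and 602 CPM. With matched comparison cells the counts were 1 of 11 higher and 0 lower, and the GATA3 call was lost there (-0.28, adjusted p 0.0692 by edgeR) and with library totals (adjusted p 0.0561). The other lower genes, PRP1, PRP4, CSH2 and TKDP4, were not tested with matched comparison cells, so that fit says nothing on them. The placental gene PAG2 measured 437 and 0 CPM in KLF5 cells against 1.46 and 20.7 CPM, so it came from replicate 1, where 1 KLF5 cell held 10 or more placental UMIs. Near-identical placental family members could split reads, which makes their single values uncertain. PRP1 had 1 UMI in KLF5 cells and 1099 in KLF5-negative cells, a 97.0-fold difference in level (17.4 to 3837). Those UMIs lay in 27 of 1447 and 16 of 1845 cells, so the interval, which takes UMIs as independent, is too narrow. Without the replicate block the call was lost (adjusted p 0.190 by edgeR).

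In the gut endoderm list 4 of 8 were higher and 3 lower, and 4 of 7 higher and 1 lower with matched comparison cells. The endoderm factor FOXA3 had the largest change of the list, at 13 and 8.06 against 0.364 and 0.536 CPM (4.17, SE 0.63, adjusted p 3.68e-10; 3.93 with matched comparison cells), from 11 and 7 UMIs in KLF5 cells, while its relative FOXA2 was lower at 144 and 174 against 214 and 226 CPM (-0.72, SE 0.12, adjusted p 1.11e-08). No yolk sac or hepatic gene was higher and 5 of 10 were lower, and none of 5 was called with matched comparison cells. SERPINA1 and AHSG, which were among the lower ones, were not tested with matched comparison cells. In the mesenchyme list, which the collagen VI limit touches on both sides, 5 of 12 were lower and only FN1 was higher. Only 1 of 12 was lower with matched comparison cells. VIM measured 615 and 886 against 1580.1 and 1966 CPM (-1.50, SE 0.12, adjusted p 1.7e-33; -0.35 with matched comparison cells).

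No erythroid gene of 6 was called by edgeR, and 1 of 4 was lower with matched comparison cells, at summed levels of 859 and 626 CPM against 928 and 1799.6 CPM. Endothelial genes had 3 of 5 higher at summed levels of 35.4 and 31.1 CPM against 17.3 and 18.8 CPM, and 2 of 3 higher with matched comparison cells. CDH5, TIE1 and EMCN were at 0, but they also reached at most 0.357 CPM in KLF5-negative cells. Cardiomyocyte genes had 3 of 3 lower, with 0 of 2 called against matched cells, where MYL7 was not tested. Notochord genes had 2 of 3 lower, and 1 of 3 lower against matched cells. Myeloid genes had 2 of 5 higher and 1 lower, with 0 of 4 called against matched cells, where the lower gene, PF4, was not tested. PTPRC, CSF1R and TYROBP were at 0, against at most 1.16 CPM in KLF5-negative cells. Germ cell genes other than TEX14 had 1 of 3 higher, PRDM1, and 1 of 3 higher with matched comparison cells. The germ cell genes DDX4 and DAZL had no UMI in any KLF5 cell, which says little if KLF5-negative cells also held few. Somitic genes had 1 of 3 higher, and 0 of 2 higher and 1 lower with matched comparison cells. In the lateral plate list TBX20, a T-box factor, was the 1 higher gene of 6, at 63.7 and 40.3 against 8.01 and 6.43 CPM (2.58, SE 0.29, adjusted p 7.8e-18), with HAND2 the 1 lower. With matched comparison cells 1 of 3 lateral plate genes was higher and 1 lower. In the maternal endometrium list 2 of 3 were higher, PAX8 and MSX1, and 2 of 2 with matched comparison cells.

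Of the 6238 calls of the first comparison, 2895 were called again in the same direction with matched comparison cells and 18 in the opposite one. Log2 fold changes of the leading genes moved by unequal amounts. The value of PCDH9 was -3.26 in place of -3.23, that of PMAIP1 2.39 in place of 2.72 and that of ATF7IP2 2.54 in place of 3.27. HPSE2, PRSS12 and L3MBTL1 stood at 2.23, 1.88 and 1.82, and the lower genes S100G, INA and PCSK1N at -4.17, -1.95 and -1.18, all of them nearer to equal levels. Of the 81 named genes that could be tested, other than those given with the rule, 68 were called.

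**Figure D5:**
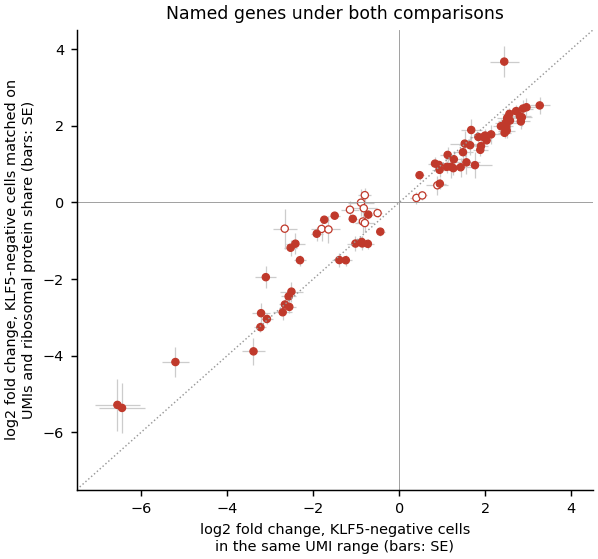
Log2 fold changes (KLF5 over KLF5-negative cells) of 81 named genes against KLF5-negative cells in the same UMI range (x axis) and against those matched on UMIs and ribosomal protein share (y axis); bars are standard errors and filled points are the 68 genes called with matched cells. Both axes share the KLF5 cells, and the dotted line marks equal values.

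The comparison was then split at a ribosomal protein share of 10%, in 1 fit of 8 sums. Under 10%, where 162 and 147 KLF5 cells lay, 1797 of 12871 genes were higher (14%) and 1963 lower (15.3%). At 10% or more, with only 12 and 20 KLF5 cells, 47 were higher (0.365%) and 187 lower (1.45%). The difference between the contrasts passed the test for 202 genes with the larger value under 10% (1.57%) and for 99 with the smaller (0.769%). The median of all genes was -0.00 under 10% and -0.33 above, so that each difference includes a general shift of 0.30.

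As a description of the genes given with the rule, RNF19B had log2 fold changes of 2.04 under 10% and 0.30 above, FAM43A of 2.60 and -0.10, and TEX14 of 2.39 and 1.30. Counts in the upper class were small: FAM43A had 2 UMIs in the KLF5 cells of each replicate. These genes were also lower in the KLF5-negative cells of that class, where FAM43A measured 10.8 and 13.0 CPM against 42.0 and 38.9 CPM under 10%.

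The GFP row of the count table measured 724 and 857 CPM in KLF5 cells against 1909 and 2029.8 CPM, a log2 fold change of -1.57 (SE 0.12, adjusted p 7.72e-36 by edgeR). It was lower in KLF5 cells of both replicates, and with matched comparison cells the value was -0.33 (adjusted p 0.00503). Which cells carried a GFP transgene is not given in the labels.

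The collagen VI limit set aside 7 and 20 further cells with 2 or more KLF5 UMIs. They were deeper, with medians of 9165 and 11447 UMIs, and had median ribosomal protein shares of 8.30% and 17.5%. RNF19B measured 0 and 44.0 CPM and TEX14 65.2 and 52.8 CPM in them, near the KLF5-negative values and below those of the KLF5 cells. DCN, a collagen-binding proteoglycan of mesenchyme, measured 489 and 3806 CPM, against 14.2 and 6.91 CPM in KLF5 cells. With so few cells and the limit itself built from matrix genes, no test was made.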

How the data were processed

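The authors deposited raw UMI counts per gene and cell for both samples in 1 table. Per the submitters' processing notes, Cell Ranger, R 4.1.2 and Seurat 4.3.0 were used with the bosTau9 genome build; the annotation used is not given there. Deposited cells had 201 to 3999 genes and at most 4.98% mitochondrial counts, so filtering came before deposit. No doublet caller was run; the limit on genes removes deep cells, and cells under 3500 genes were tried as an alternative. Near-identical genes (placental families, histones) can split reads.

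Counts were summed per side and replicate and tested with edgeR 4.0.16 in R 4.3.3 (TMM, filterByExpr, robust quasi-likelihood, Benjamini-Hochberg over all genes tested at 0.05). KLF5, COL6A1, COL6A2 and COL6A3 entered the fit but no count of calls, and RNF19B, TEX14 and FAM43A are described only and left out of list and named gene counts. Replicate was a block because both sides of a number come from 1 suspension. CPM are summed counts scaled to a fixed library total, without TMM. With the replicate block, p-values set the difference between the sides against how far that difference varied between these 2 samples. That spread was pooled over genes and may be technical. On data simulated with 13046 genes, the fit recovered 66% of genes changed 2-fold and 91% of those changed 4-fold. The simulation gave every gene the same spread and changed only 100 genes by each fold, so these rates need not hold for the real sums.

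Named genes were the 16 highest and 12 lowest log2 fold changes among called genes with 50 or more CPM, the 2 largest called changes with 20 or more CPM in each of 39 lists, and called KLF family genes; other list members are named to complete a count, and some genes are not reported here. KLF5 cells and the lists were chosen with earlier results of these data known. DESeq2 1.42.0, other factors, filters, thresholds and matched cells were alternatives. None of 5 listed nuclear RNAs had a row in the table.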

Additional observations from a re-analysis of the deposited data

Results flagged for a closer look

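The contrast of KLF5 against KLF5-negative cells differed between cells with a ribosomal protein share under 10% and at 10% or more for DCN and MSX1, by edgeR's test of the difference itself. For DCN the difference was 4.47 on the log2 scale (SE 1.09, adjusted p 0.0381). It rested on 1 and 0 DCN UMIs in KLF5 cells at 10% or more, against 314 and 667 in KLF5-negative cells of that class. For MSX1, a homeobox gene, the difference was 1.30 (SE 0.34, adjusted p 0.0493), from 116 and 112 CPM against 44.1 and 43.8 CPM under 10% and from 85.7 and 55.6 CPM against 59.9 and 51.8 CPM above. The median difference over all genes was 0.30, and the upper class held 12 and 20 KLF5 cells.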

How the results depend on the processing

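Against 3003 genes higher and 3235 lower, DESeq2 called 1230 and 1497, a threshold of 3 or more KLF5 UMIs 1911 higher, cells matched on UMIs and ribosomal protein share 1647 and 1932, cells under 10% ribosomal protein share 2134 lower, and cells at 10% or more 9 and 24, from 12 and 20 KLF5 cells. Library totals in place of TMM, chosen after seeing the data, gave 2102 lower and moved the median of all genes from -0.03 to 0.22. Without a filter on low counts 41.9% of calls were higher in place of 48.1%, and at 10% or more 27.3% were. Without the replicate block 2810 were higher and 2906 lower; it ended the calls of PRP1 (adjusted p 0.190) and RSPO3 (0.121), and no other named gene. For the difference between ribosomal classes the fit without a replicate block gave 252 and 110 genes. A split at 15% was not run, since 1 sum held 7 cells. Leaving out 1 replicate leaves no residual degrees of freedom, so no call could be tested. Of the calls, 99.7% and 99.8% kept their sign, but they had been made on both replicates, so this was largely set in advance. The direction reversed for RBP4 (0.17), TNNI1 (0.17) and FZD2 (0.14) under 10%, for APOE with matched cells (0.19) and at 10% or more (0.0935), and for SNAI2 (-0.19) and NRARP (-0.17) at 10% or more; none of these values was called, and the cause was not tested. Of 82 named genes, DESeq2 kept 75 calls, losing TNNI1, NFKBIZ, TEAD4, FZD2, KLF6, KLF13 and SP1, matched cells kept 68 of 81, and 1 or more KLF5 UMIs lost RBFOX1, CSMD1, TNNI1 and RSPO3. Means of per cell CPM moved 36 of 82 values by more than the spread between replicates and reversed none. Few KLF5 cells at 10% or more limit what can be said there.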

Other observations

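Histone genes were looked at after their values were seen, because H2BC20 was among the highest genes. Of 51 tested, 24 were higher and 1 was lower in KLF5 cells by edgeR, with a median log2 fold change of 0.93, against 22.6% and 24.3% over all genes. With KLF5-negative cells matched on UMIs and ribosomal protein share, 25 of 44 were higher and none lower, against 13.4% and 15.7% over all genes. H4C8 measured 168 and 144 CPM in KLF5 cells against 31.5 and 32.3 CPM (log2 fold change 2.03, SE 0.16, adjusted p 3.34e-34), and H4C14 measured 165 and 121 CPM against 27.1 and 24.7 CPM (2.21, SE 0.17, adjusted p 7.99e-37). The linker histone gene H1-10 was the lower one, at 755 and 726 CPM against 742 and 815 CPM (-0.32, SE 0.11, adjusted p 0.0111), where the sides overlapped in CPM. Replication-dependent histone transcripts mostly lack a poly(A) tail, and near-identical copies can split reads, so single values are uncertain.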
